A study of Mus musculus with 25 samples.

Results

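The genes described here encode the urea cycle and the liver enzymes that break down amino acids. They were chosen by name, with earlier results of these data known. The 40 gene symbols cover the urea cycle, histidine, serine, glutamine and transamination, phenylalanine and tyrosine, tryptophan, proline, branched-chain, glycine and methionine breakdown. All 40 were found among the 24537 genes of the count table, and all 40 were among the 14133 genes that passed the filter on low counts. Liver polyA RNA came from 24-month-old male C57BL6/J mice that differed in genotype, Rosa26KO (Rosa26 is a locus often targeted as a control) or p53KO, and in diet, a control diet or a high-fat diet (HFD). There were 6 libraries from Rosa26KO on control diet (Control_Rosa26KO), 6 from Rosa26KO on HFD (HFD_Rosa26KO), 6 from p53KO on control diet (Control_p53KO) and 7 from p53KO on HFD (HFD_p53KO). The labels do not state how or in which cells the genes were knocked out, what the diets held or how long they were fed. They also do not say whether each library came from a separate animal, so the p-values measure the spread between these libraries.

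The liver takes up most dietary amino acids, moves their nitrogen onto glutamate and aspartate by transamination, and turns the ammonia released into urea. The urea cycle enzymes and several amino acid degrading enzymes are most abundant in periportal hepatocytes and are classically raised by glucagon, glucocorticoids and dietary protein. The remaining carbon feeds gluconeogenesis, ketone bodies or one-carbon metabolism, the last of these through methionine, glycine, serine and histidine.

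The tests found differences by diet in these genes and none by genotype. Between genotypes 0 of all 14133 genes tested passed, on either diet or on average. On HFD, averaged over both genotypes, 10 of the 40 fell and 1 rose by edgeR's quasi-likelihood test with Benjamini-Hochberg adjustment over all genes tested, of which 9.71% passed, 4.64% higher and 5.07% lower. The 10 were Hal, Cps1, Afmid, Gnmt, Agxt, Gls2, Haao, Ass1, Tat and Cth, and the 1 was Gpt2. Promoter sequence from RefSeq (GRCm38.p6, from 250 bases before to 50 bases after the annotated start) was at hand for 30 of the 40 genes and for 8 of these 11. Printed are those of Hal, the gene of largest fall, of Gnmt, 1 of the genes whose diets did not overlap in Rosa26KO, and of Gpt2, the gene that rose. Capitals mark a match to a motif searched on both strands.

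Hal (chr10:93488518-93488817, plus strand): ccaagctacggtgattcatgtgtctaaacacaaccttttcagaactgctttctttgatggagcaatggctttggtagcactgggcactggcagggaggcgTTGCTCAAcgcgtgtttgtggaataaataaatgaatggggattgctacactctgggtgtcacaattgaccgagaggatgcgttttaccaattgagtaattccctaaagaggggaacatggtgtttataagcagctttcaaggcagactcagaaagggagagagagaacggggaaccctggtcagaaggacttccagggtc
Gnmt (chr17:46729116-46729415, minus strand): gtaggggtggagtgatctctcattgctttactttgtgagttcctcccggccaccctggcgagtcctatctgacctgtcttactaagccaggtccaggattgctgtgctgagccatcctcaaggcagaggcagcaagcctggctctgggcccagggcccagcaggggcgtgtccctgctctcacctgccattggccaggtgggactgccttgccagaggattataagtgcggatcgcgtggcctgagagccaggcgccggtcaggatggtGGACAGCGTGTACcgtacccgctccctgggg
Gpt2 (chr8:85492326-85492625, plus strand): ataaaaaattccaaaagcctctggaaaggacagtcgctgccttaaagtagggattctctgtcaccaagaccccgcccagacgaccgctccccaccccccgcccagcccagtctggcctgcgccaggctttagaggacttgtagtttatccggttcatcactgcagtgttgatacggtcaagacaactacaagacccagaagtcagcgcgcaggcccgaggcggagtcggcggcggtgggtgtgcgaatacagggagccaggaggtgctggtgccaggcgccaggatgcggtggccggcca

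The capitals in Hal are a C/EBP motif (letters TTGCNNAA) that begins at position -150 from the start. C/EBP factors are liver transcription factors. The motif is in 10.8% of all 32851 promoters of this length and in 3 of the 32 promoters of these genes, those of Hal, Hgd and Prodh2. The capitals in Gnmt match the letters of a glucocorticoid response element. This motif is in 0.475% of all promoters and in no other promoter of these genes. The match in Gnmt begins at position 20 after the start, so it lies in transcribed sequence and not before the start. The letters of a start codon stand just before it in the printed sequence, so it may lie in coding sequence. Gpt2 holds no match. Matches to HNF4 (CAAAGTCCA), the core of the cAMP response element (TGACGT) and FOXA (TGTTTAC) were in none of the 32. Among all promoters they were in 0.475%, 7.51% and 3.65%. The matches shown do not overlap each other. They are matches of letters and were not tested as sites.

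Library totals ran from 16324283 to 21501281 counts. The level of each gene is given as CPM, its read count scaled to a common library size by the TMM method. Trp53, the gene targeted in p53KO, ran from 30.6 to 43.8 CPM in the 12 Rosa26KO libraries and from 17.2 to 35.6 in the 13 p53KO libraries, so the genotypes overlapped. Its log2 difference averaged over both diets was -0.56 (SE 0.10), with an unadjusted p of 1.48e-05 and an adjusted p of 0.210 in edgeR. It was -0.61 on control diet and -0.51 on HFD. Alb, the albumin transcript that defines hepatocytes, was between 36511 and 130670.0 CPM in every library. Of 9 marker genes of kidney, pancreas, muscle and fat, 1 was abundant enough to test. Some libraries had high marker scores, the mean log2 CPM of the marker genes minus the median over all 25 libraries. Neutrophil markers were more than 2 above the median in HFD_Rosa26KO 6 (3.98), Control_p53KO 1 (4.83) and Control_p53KO 3 (2.12). Acute phase genes, which hepatocytes raise in inflammation, were more than 1.5 above it in Control_Rosa26KO 1, HFD_Rosa26KO 6, Control_p53KO 1, HFD_p53KO 2 and HFD_p53KO 7. Results are therefore also given without these libraries, an alternative chosen after the data were seen.

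The first comparison asked how HFD moved the genes, averaging the diet difference of the 2 genotypes. Of all 14133 genes, 9.71% passed the edgeR threshold of an adjusted p of 0.05, 4.64% higher and 5.07% lower. Of the 40 genes, 1 passed higher and 10 lower. The median log2 fold change of the 40 was -0.29, against -0.01 over all genes tested, and 32 of the 40 lay below 0. Since the 40 were chosen with earlier results of these data known, these contrasts with all genes are descriptive. At an unadjusted p under 0.05 there were 17 of the 40 and 3428 of all genes. Without the 3 libraries high in neutrophil markers 18 of the 40 passed, against 17.6% of all genes. Without the 5 high in acute phase genes 17 passed, against 11.9%, and without the libraries high in either, 26 passed, against 19.99%. The count also moved with single libraries. It was 19 without HFD_p53KO 7, against 13.2% of all genes, and 15 without Control_p53KO 3 or without Control_Rosa26KO 2, against 13.3% and 13.2%. It was 7 without any 1 of Control_Rosa26KO 5, HFD_Rosa26KO 5, Control_p53KO 6 and HFD_p53KO 1, 3, 4 or 6, against 7.57% to 8.76%. It was 6 without Control_p53KO 2 or 5, against 7.11% and 7.52%, and 5 without HFD_Rosa26KO 3, against 7.17%. The share of all genes thus moved in the same direction as the count of the 40 in these fits. Hal, Cps1, Afmid, Gnmt and Agxt passed in all 25 fits that left out 1 library.

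**Figure D1:**
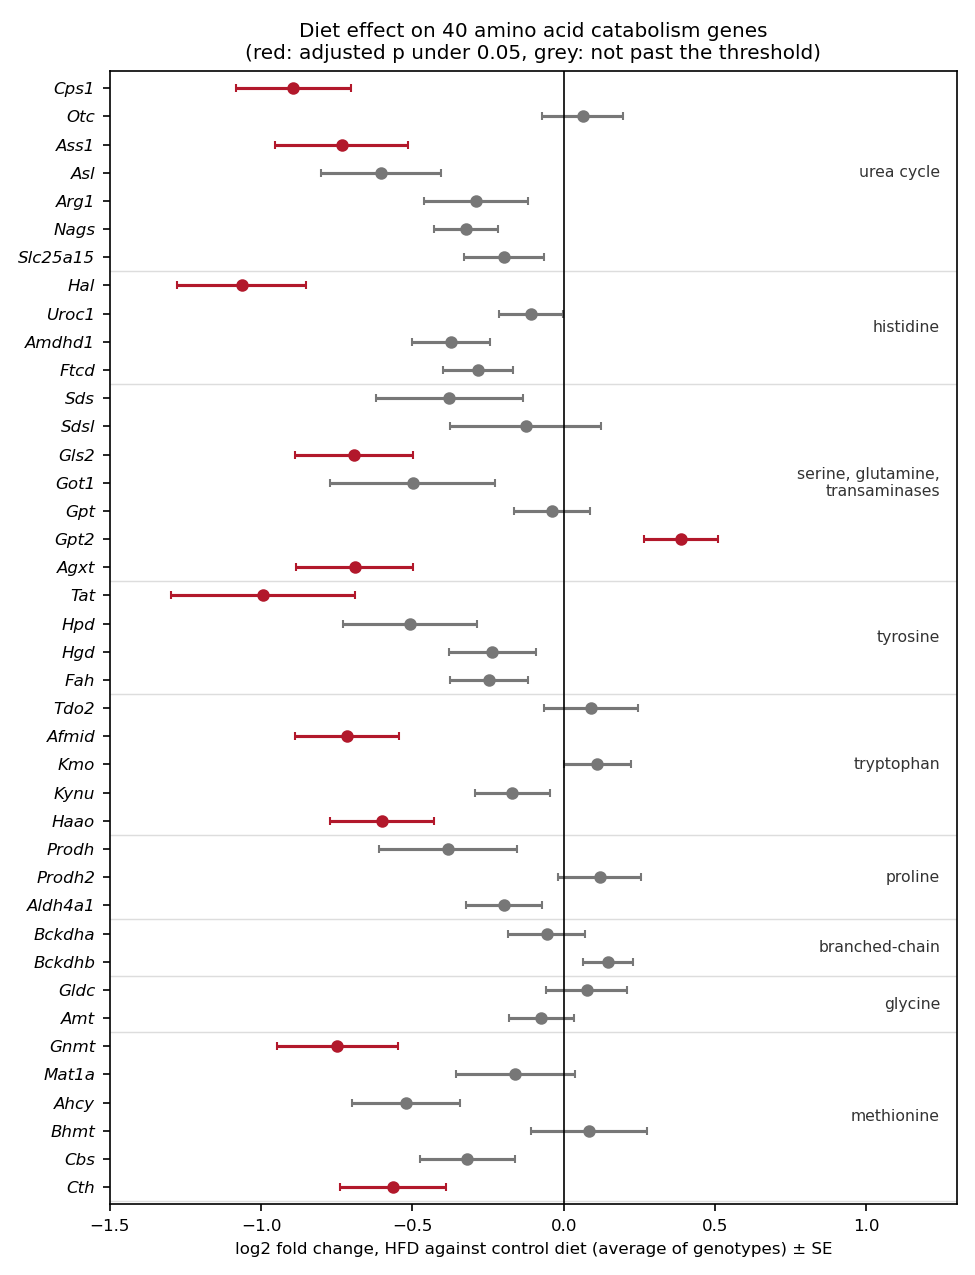
Log2 fold change on HFD against control diet, averaged over both genotypes, for each of the 40 genes, with its SE as a horizontal line. Red marks the 10 genes past the threshold below 0 and Gpt2 past it above 0, and grey marks the other 29.

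Markers of liver cells and blood were read beside this result. Of 8 tested genes of a hepatocyte marker list, 3 passed lower on HFD (Alb -0.63, Apoa1 -0.52 and Serpina1c -0.67 on the log2 scale), all 8 lay below 0 and their median was -0.46. The summed level of the list ran from 110654 to 169989 CPM in Control_Rosa26KO, from 69868 to 179631 in HFD_Rosa26KO, from 84506 to 162006 in Control_p53KO and from 67301 to 124730 in HFD_p53KO. Of 7 erythroid genes the 4 globin genes passed higher, with a median of 1.26 over the list. The 7 genes summed to 717 to 1366 CPM in Control_Rosa26KO, 979 to 8254 in HFD_Rosa26KO, 718 to 1906 in Control_p53KO and 923 to 4648 in HFD_p53KO. None of 12 neutrophil, 14 acute phase or 10 Kupffer cell genes passed in edgeR, with 0, 1 and 2 at an unadjusted p under 0.05. The neutrophil genes summed to 15.9 to 856 CPM in Control_Rosa26KO, 117 to 934 in HFD_Rosa26KO, 21.3 to 4567 in Control_p53KO and 129 to 3945 in HFD_p53KO, and Camp was at 0 in libraries of every group. Periportal and pericentral genes were read too, since the urea cycle is periportal. Of 15 periportal genes 6 are among the 40, and of the other 9, 1 passed higher (Hsd17b13 at 0.47), 0 passed lower, 5 lay below 0 and the median was -0.22. These 9 summed to 6593 to 9868 CPM in Control_Rosa26KO, 7127 to 9053 in HFD_Rosa26KO, 4846 to 9381 in Control_p53KO and 5678 to 9942 in HFD_p53KO. Their mean score was 0.10 in Control_Rosa26KO and 0.09 in HFD_Rosa26KO, and 0.17 in Control_p53KO and -0.18 in HFD_p53KO. Of 13 pericentral genes 2 passed lower (Cyp1a2 at -1.06 and Cyp27a1 at -0.53), with a median of 0.09, and their mean score was 0.15, -0.05, -0.07 and 0.06 in the same order of groups. Their sums ran from 5196 to 12972 CPM, 6219 to 9891, 3829 to 11544 and 4238 to 12829. The part of these shifts in the result was not tested, and in bulk tissue fewer hepatocytes and less RNA per hepatocyte cannot be told apart.

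In the urea cycle, 2 of 7 genes fell on HFD, both at the entry of nitrogen. Cps1 (chr1:67123026-67231259, plus strand) makes carbamoyl phosphate from ammonia in the mitochondrion and is the rate-limiting enzyme. Cps1 ran over 1821 to 3308 (median 2657) CPM in Control_Rosa26KO, 1069.9 to 2608 (median 1319.8) in HFD_Rosa26KO, 1511 to 3585 (median 2746) in Control_p53KO and 818 to 2662 (median 1076) in HFD_p53KO. In 12 of the 13 HFD libraries it was below the control median of 2657 CPM, and the exception was HFD_p53KO 7, whose 2662 CPM was just above that median. Its log2 fold change was -0.89 (SE 0.19, adjusted p = 0.00452) in edgeR, a fall of 46.2%.

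Ass1 (chr2:31470207-31520672, plus strand), which joins the second nitrogen from aspartate to citrulline, was at 2949.5 to 4147 (median 3134) CPM in Control_Rosa26KO and 1348 to 3059 (median 1877) in HFD_Rosa26KO. In p53KO it was at 1165 to 3248 (median 2943) CPM on control diet and 746 to 3898 (median 1381) on HFD. The diets overlapped in both genotypes, in p53KO with Control_p53KO 3 low and HFD_p53KO 7 high. On HFD its log2 fold change was -0.73 (SE 0.22, adjusted p = 0.0350) in edgeR. It lost the threshold in 12 of 25 fits that left out 1 library, with adjusted p up to 0.0658 (without Control_Rosa26KO 5, HFD_Rosa26KO 1, 3 or 5, Control_p53KO 2, 5 or 6, or HFD_p53KO 1, 2, 3, 4 or 6).

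The 5 other urea cycle genes did not pass. Nags, which makes the acetylglutamate that activates Cps1, had a log2 fold change of -0.32 (SE 0.11, adjusted p = 0.0531) in edgeR. Asl, which cleaves argininosuccinate to arginine, had one of -0.60 (SE 0.20, adjusted p = 0.0550). These are the first genes outside the threshold. Arg1, the arginase that releases urea, was at -0.29 and Slc25a15, the mitochondrial ornithine carrier, at -0.20. Otc, which makes citrulline between Cps1 and Ass1, was at 0.06 (SE 0.13). Its means lay within 1 SD of each other, at 372 ± 91.6 CPM in Control_Rosa26KO (SD, n = 6), 384 ± 46.9 in HFD_Rosa26KO (n = 6), 354 ± 103 in Control_p53KO (n = 6) and 374 ± 83.8 in HFD_p53KO (n = 7).

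**Figure D2:**
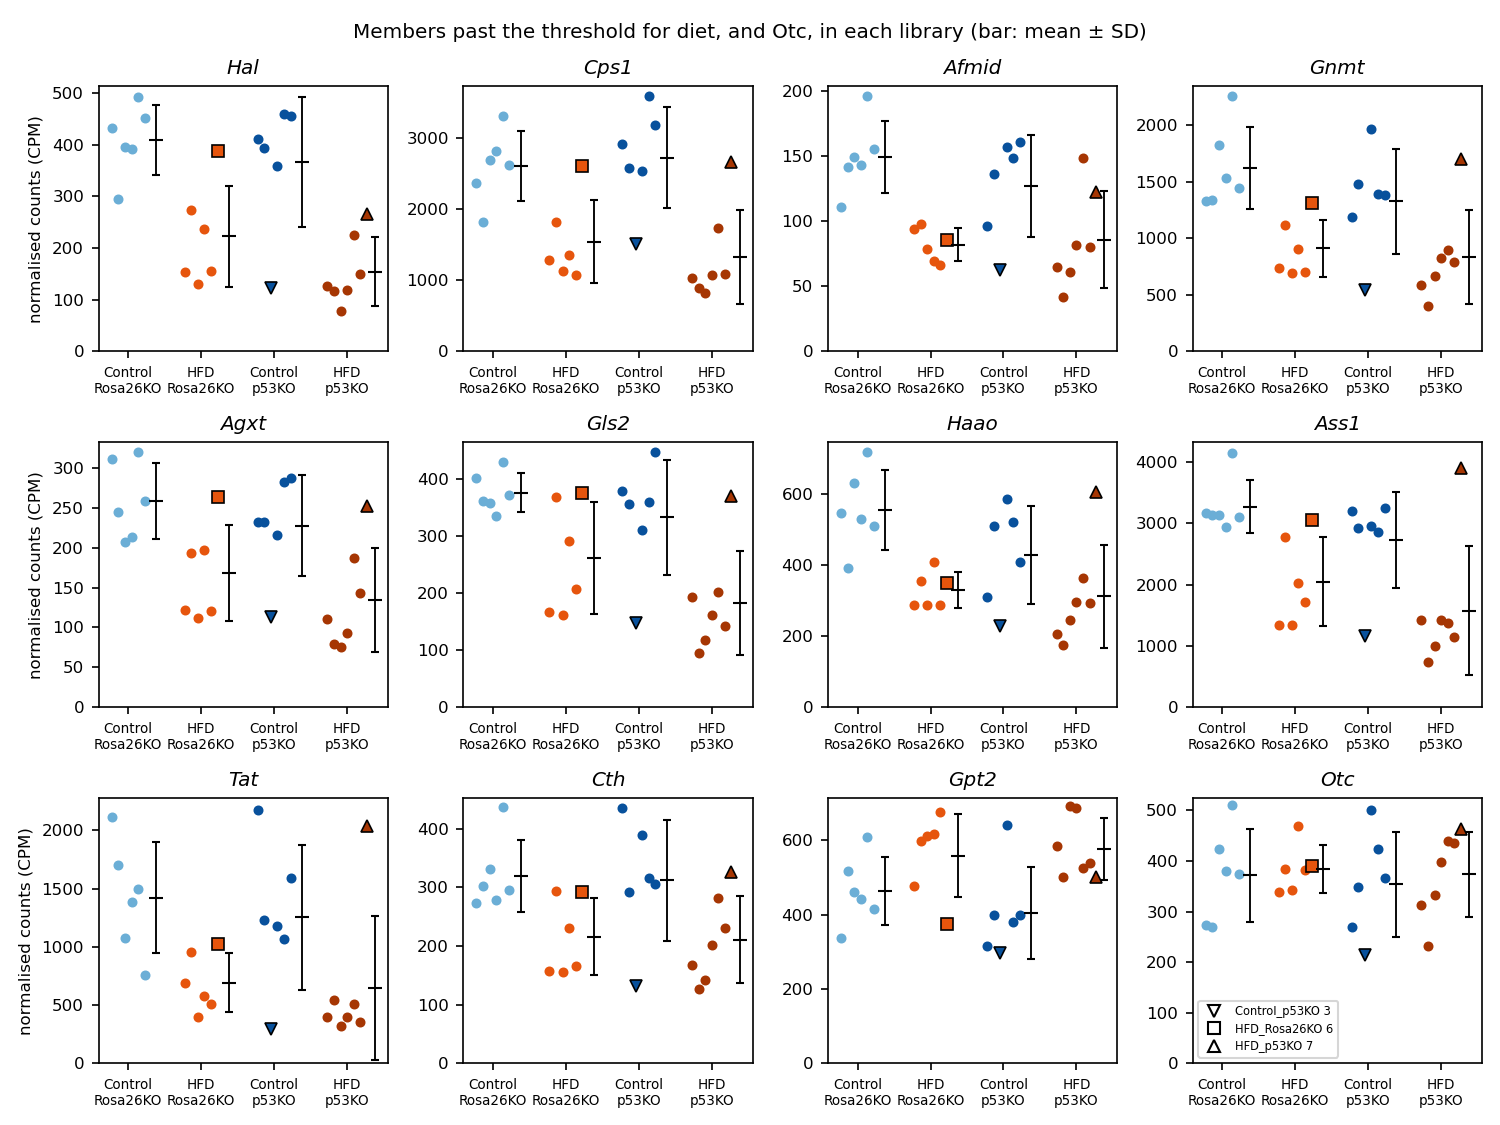
CPM of the 11 genes past the threshold for diet and of Otc in each of the 25 libraries (points), by group, with the group mean as a bar and its SD as an error bar. In Control_p53KO, replicate 3 is the lowest point in all 12 panels, and in HFD_p53KO, replicate 7 is the highest for Cps1, Ass1, Hal, Gls2, Agxt, Tat, Haao, Gnmt, Cth and Otc.

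Of the 4 histidine genes, 1 fell, and it had the largest fold change of the 40. Hal (chr10:93488768-93519304, plus strand) encodes histidase, which removes ammonia from histidine in the first step. Hal ran over 295 to 492 (median 414) CPM in Control_Rosa26KO and 129.7 to 388 (median 196) in HFD_Rosa26KO. It ran over 123 to 460.1 (median 402) CPM in Control_p53KO and 78.2 to 266 (median 127) in HFD_p53KO. All 13 HFD libraries lay below the control median of 403 CPM, although the ranges overlapped, since HFD_Rosa26KO 6 reached 388 and Control_p53KO 3 was at 123. The log2 fold change was -1.06 (SE 0.21, adjusted p = 0.00293) in edgeR, a fall of 52.2%. Amdhd1, the imidazolonepropionase of the same route, lies 4033 bases from Hal on chromosome 10 and was at -0.37 (SE 0.13, adjusted p = 0.0695), not past the threshold, though all 13 HFD libraries were below its control median of 248 CPM. Uroc1, which acts on the product of Hal, was at -0.11 and Ftcd, which passes the one-carbon unit to folate, at -0.28.

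Among the 7 genes of serine and glutamine breakdown and transamination, 2 fell and 1 rose. Gls2 (chr10:128194457-128210004, plus strand) encodes the liver glutaminase, which frees ammonia from glutamine, and is known as a p53 target. Gls2 ran over 336 to 430.2 (median 367) CPM in Control_Rosa26KO, 161 to 377 (median 249) in HFD_Rosa26KO, 149 to 448 (median 358) in Control_p53KO and 95.2 to 371 (median 162) in HFD_p53KO. In HFD_Rosa26KO, 4 of the 6 libraries were below every Control_Rosa26KO library. Replicates 2 (369 CPM) and 6 (377 CPM) of that group were above the median of all control-diet libraries. In HFD_p53KO replicate 7 alone was above that median. The log2 fold change on HFD was -0.69 (SE 0.20, adjusted p = 0.0260) in edgeR. Without HFD_Rosa26KO 3 the adjusted p was 0.0503.

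Agxt (chr1:93135240-93145421, plus strand), which transaminates alanine with glyoxylate in peroxisomes, was at 207 to 319.8 (median 252) CPM in Control_Rosa26KO and 111 to 264 (median 157) in HFD_Rosa26KO, and at 113 to 288 (median 232) in Control_p53KO and 75.6 to 252 (median 111) in HFD_p53KO. In 11 of the 13 HFD libraries it was below the control median of 239 CPM. Its log2 fold change was -0.69 (SE 0.19, adjusted p = 0.0251) in edgeR.

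Gpt2 (chr8:85492576-85527560, plus strand), the mitochondrial alanine aminotransferase, was the 1 gene that rose. It ran over 337 to 609 (median 452) CPM in Control_Rosa26KO, 374 to 677 (median 606) in HFD_Rosa26KO, 296 to 641 (median 389) in Control_p53KO and 501 to 694 (median 540.0) in HFD_p53KO. In 12 of the 13 HFD libraries it was above the control median of 408 CPM, and HFD_Rosa26KO 6 was the exception. HFD_p53KO 7, highest of its group for most of the genes that fell, was lowest of its group for Gpt2. Its 501.0 CPM was nearly equal to the 501.5 CPM of HFD_p53KO 2. The log2 fold change of Gpt2 was 0.39 (SE 0.12, adjusted p = 0.0456) in edgeR. It lost the threshold in 17 of 25 fits that left out 1 library, with adjusted p up to 0.0839. The 8 fits that kept it were those without Control_Rosa26KO 2 or 5, HFD_Rosa26KO 1 or 6, Control_p53KO 4, or HFD_p53KO 2, 5 or 7. The cytosolic alanine aminotransferase Gpt was at -0.04 (SE 0.12). The cytosolic aspartate aminotransferase Got1 was at -0.50 (SE 0.27), the serine dehydratase Sds at -0.38 (SE 0.24) and its relative Sdsl at -0.13 (SE 0.25). Sdsl ran from 3.87 to 25.9 CPM over the 25 libraries.

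Of the 4 tyrosine genes, Tat fell. Tat (chr8:109990437-109999803, plus strand), tyrosine aminotransferase, is the first and rate-limiting enzyme of tyrosine breakdown. It ran over 761 to 2115 (median 1442) CPM in Control_Rosa26KO and 397 to 1028 (median 634) in HFD_Rosa26KO, and over 291 to 2172 (median 1204) in Control_p53KO and 317 to 2041 (median 397) in HFD_p53KO. Of the HFD_p53KO libraries, 6 of 7 were at or under 541 CPM and replicate 7 was at 2041, while Control_p53KO 3 was at 291. The log2 fold change was -0.99 (SE 0.30, adjusted p = 0.0399) in edgeR, with the largest SE of the 11. It lost the threshold in 17 of 25 fits that left out 1 library, with adjusted p up to 0.0724, and kept it without Control_Rosa26KO 2, 3 or 6, HFD_Rosa26KO 2 or 6, Control_p53KO 3 or 4, or HFD_p53KO 7. The later enzymes Hpd, Hgd and Fah had log2 fold changes of -0.51, -0.24 and -0.25, none past the threshold.

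Of the 5 tryptophan genes, 2 fell, both in the kynurenine route. Afmid (chr11:117825924-117839908, plus strand), kynurenine formamidase, was at 111 to 196 (median 146) CPM in Control_Rosa26KO and 66.2 to 98.0 (median 82.2) in HFD_Rosa26KO, ranges that did not overlap. In p53KO it was at 62.9 to 161 (median 143) CPM on control diet and 42.0 to 149 (median 80.1) on HFD, which overlapped. In edgeR its log2 fold change was -0.72 (SE 0.17, adjusted p = 0.00974). Its exons share 46.6% of their bases with exons of Gm20708 and Tk1, and since the strand of counting is not given, reads of these genes could be part of its count.

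Haao (chr17:83831156-83847963, minus strand), the dioxygenase that leads towards NAD, was at 391 to 719.5 (median 539) CPM in Control_Rosa26KO, 287 to 409 (median 319.7) in HFD_Rosa26KO, 228 to 587 (median 459.7) in Control_p53KO and 175 to 607 (median 293) in HFD_p53KO. In 12 of the 13 HFD libraries it was below the control median of 516 CPM. On HFD its log2 fold change was -0.60 (SE 0.17, adjusted p = 0.0277) in edgeR, and the adjusted p rose to at most 0.0516 in the 4 fits, of 25, in which it lost the threshold (without Control_Rosa26KO 5, HFD_Rosa26KO 3, Control_p53KO 2 or Control_p53KO 5). Tdo2, the dioxygenase that opens the route, was at 0.09 (SE 0.16), and Kmo and Kynu, which act between Afmid and Haao, were at 0.11 (SE 0.11) and -0.17 (SE 0.12).

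Of the 6 methionine and sulfur amino acid genes, 2 fell. Gnmt (chr17:46725664-46729168, minus strand), glycine N-methyltransferase, uses up S-adenosylmethionine. It ran over 1328 to 2252 (median 1486) CPM in Control_Rosa26KO and 694 to 1309 (median 822) in HFD_Rosa26KO, with no overlap, and over 542 to 1965 (median 1387) in Control_p53KO and 397 to 1699 (median 791) in HFD_p53KO. In the p53KO libraries the overlap came from Control_p53KO 3 at 542 CPM and HFD_p53KO 7 at 1699 CPM. The log2 fold change was -0.75 (SE 0.20, adjusted p = 0.0189) in edgeR.

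Cth (chr3:157894248-157925077, minus strand), cystathionine gamma-lyase, which releases cysteine, was at 273 to 437 (median 299) CPM in Control_Rosa26KO, 156 to 293 (median 199) in HFD_Rosa26KO, 132 to 435 (median 310.3) in Control_p53KO and 127 to 325 (median 202) in HFD_p53KO. In 12 of the 13 HFD libraries it was below the control median of 304 CPM. Its fold change on the log2 scale was -0.56 (SE 0.18, adjusted p = 0.0424) in edgeR, lost in 18 of 25 fits that left out 1 library, with adjusted p up to 0.0786. The 7 fits that kept it were those without Control_Rosa26KO 1 or 2, HFD_Rosa26KO 2 or 6, Control_p53KO 3, or HFD_p53KO 5 or 7. Ahcy, which splits the S-adenosylhomocysteine that Gnmt makes, was at -0.52 (SE 0.18, adjusted p = 0.0649), not past the threshold. Mat1a, which makes S-adenosylmethionine, was at -0.16 (SE 0.20), Bhmt, which remethylates homocysteine, at 0.08 (SE 0.19), and Cbs, the step before Cth, at -0.32 (SE 0.16).

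No gene of proline, branched-chain or glycine breakdown passed in edgeR, and none of these 7 had an unadjusted p under 0.05. Their log2 fold changes were -0.38 (SE 0.23) for proline dehydrogenase Prodh, 0.12 (SE 0.14) for the hydroxyproline enzyme Prodh2 and -0.20 (SE 0.13) for Aldh4a1, which both routes share. The branched-chain dehydrogenase subunits Bckdha and Bckdhb were at -0.06 (SE 0.13) and 0.15 (SE 0.08). The glycine cleavage proteins Gldc and Amt were at 0.08 (SE 0.13) and -0.07 (SE 0.11). For Bckdha, Aldh4a1 and Sds, 61.7%, 32.5% and 29.6% of the exon bases lie in exons of other genes, with the same limit as for Afmid.

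The 11 genes kept their direction in each of the 3 runs of library numbers that the labels show. Run 1 held replicates 1 and 2 of each group, run 2 replicates 3 and 4, and run 3 the rest. The 11 were chosen on these same libraries, which favours a shared direction. Of the other 29 genes, 26 had the sign of their average in run 1, 24 in run 2 and 23 in run 3. Each run is part of that average, which favours a shared sign here too. The share over all genes was not counted. The HFD minus control difference in mean log2 CPM of Hal was -1.26 in run 1, -1.14 in run 2 and -1.07 in run 3. For Tat it was -1.52, -1.04 and -0.71, and for Gpt2 0.48, 0.55 and 0.22. What a run of library numbers stands for is not given in the labels.

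The diet comparison was then made within each genotype, on libraries that the 2 comparisons do not share. Within Rosa26KO, 1.51% of all genes passed the edgeR threshold (0.446% higher and 1.06% lower) and 0 of the 40 did, with 13 of the 40 and 2467 of all genes at an unadjusted p under 0.05. DESeq2 called 1 of the 40 and 4.35% of all genes, and limma-voom with quality weights called 18 and 21.4%. The 4 genes of smallest p were Afmid at -0.87 (SE 0.25, adjusted p = 0.0700), Nags at -0.46 (SE 0.15, adjusted p = 0.114), Haao at -0.75 (SE 0.25, adjusted p = 0.118) and Gnmt at -0.83 (SE 0.29, adjusted p = 0.135). For 3 of the 40 the libraries of the 2 diets did not overlap, against 3.01% of all genes. These were Afmid and Gnmt, given above, and Nags, at 72.5 to 91.0 (median 75.9) CPM on control diet and 46.1 to 65.1 (median 57.1) on HFD. All 6 HFD_Rosa26KO libraries lay below all 6 controls for these 3 genes. All 4 groups share 1 estimate of the spread, and without HFD_p53KO 7 Haao alone passed, at an edgeR adjusted p of 0.0489. Without Control_p53KO 3 or HFD_p53KO 5, Afmid alone did. Over the 25 fits that left out 1 library, 93 to 509 of all genes passed in this comparison.

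Within p53KO, 2.87% of all genes passed (1.62% higher and 1.25% lower) and 2 of the 40 did, both lower. Hal was at -1.25 (SE 0.30, adjusted p = 0.0240) and Cps1 at -1.03 (SE 0.26, adjusted p = 0.0351) in edgeR. In each, all 7 HFD_p53KO libraries lay below the median of the control p53KO libraries. Gls2, at -0.86 (SE 0.27, adjusted p = 0.0788), and Gpt2, at 0.51 (SE 0.17, adjusted p = 0.0970), followed and did not pass. No gene of the 40 had diets that did not overlap in p53KO, where 1.05% of all genes did. Without HFD_p53KO 7, 9 of the 40 and 4.19% of all genes passed, and without Control_p53KO 3, 4 and 3.25% did. None passed without any 1 of Control_p53KO 2, 5 and 6 and HFD_p53KO 2 and 4, against 1.23% to 1.76% of all genes, and there the adjusted p of Hal was at most 0.0572 and that of Cps1 at most 0.0825. Cps1 also lost the threshold without Control_p53KO 1 or HFD_p53KO 1, 3 or 6. When only the 13 p53KO libraries entered the fit, none passed, against 0.878% of all genes, with Hal at an adjusted p of 0.0906 and Cps1 at 0.130.

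The fold changes had the same sign in both genotypes for 32 of the 40, 28 below 0 and 4 above 0. They also did for all 11 genes past the threshold on average, but choosing genes by that average favours a shared sign. The share of all genes with a shared sign was not counted. The median of the 40 was -0.27 in Rosa26KO and -0.26 in p53KO. The difference between the 2 diet effects was tested as an interaction, and 0 of the 40 passed in edgeR, in DESeq2 or in limma-voom. Of all genes 0 passed in edgeR. At an unadjusted p under 0.05 there were 0 of the 40 and 1221 of all genes. The 4 genes of smallest p were Bckdha at 0.43 (SE 0.25, adjusted p = 0.625), Prodh at 0.77 (SE 0.46, adjusted p = 0.625), Kmo at 0.30 (SE 0.22, adjusted p = 0.677) and Nags at 0.28 (SE 0.21, adjusted p = 0.681). Prodh ran over 96.2 to 203 (median 167) CPM in Control_Rosa26KO and 68.4 to 124 (median 97.1) in HFD_Rosa26KO, and over 48.6 to 152 (median 112) in Control_p53KO and 47.0 to 231 (median 84.8) in HFD_p53KO, where the groups overlapped widely. Bckdha ran over 183 to 282 (median 217) and 145 to 243 (median 171) CPM in Rosa26KO on control diet and HFD, and over 108 to 226 (median 186) and 139 to 266 (median 203) in p53KO. Kmo ran over 209 to 297 (median 258) and 222 to 279 (median 245) CPM in Rosa26KO, and over 134 to 309 (median 227) and 198 to 398 (median 281) in p53KO. All of these ranges overlapped. The interaction in Hal was -0.37, with bounds of 2 SE at -1.22 and 0.47, and that in Cps1 was -0.28, with bounds of -1.04 and 0.48, so a difference between genotypes of either sign lies within these bounds.

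**Figure D3:**
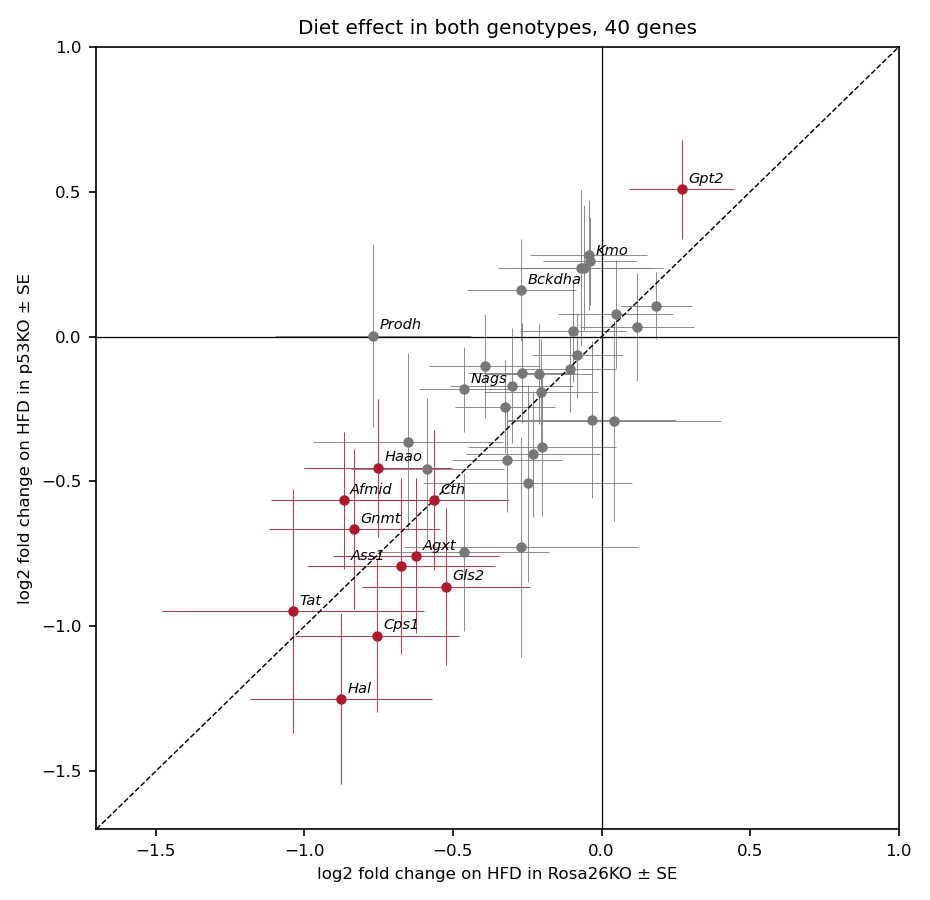
Log2 fold change on HFD in Rosa26KO (x axis) against that in p53KO (y axis), with SE on both axes, for the 40 genes, red for the 11 past the threshold on average and grey for the others, with equal effects on the dashed line. Of the 40, 28 lie below 0 on both axes. The 11 genes past the threshold on average have the same sign on both, which their choice by that average favours.

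Genotype was compared on each diet. On control diet, 0 of the 40 and 0 of all genes passed in edgeR, at a background of 0%. At an unadjusted p under 0.05 there were 0 of the 40 and 1408 of all genes, and DESeq2 and limma-voom called 0 of the 40. The 4 genes of smallest p were Nags at -0.29 (SE 0.15, adjusted p = 0.510), Prodh at -0.62 (SE 0.33, adjusted p = 0.511), Bckdha at -0.34 (SE 0.18, adjusted p = 0.512) and Fah at -0.32 (SE 0.19, adjusted p = 0.540). Nags ran over 72.5 to 91.0 (median 75.9) CPM in Control_Rosa26KO and 42.1 to 78.4 (median 64.9) in Control_p53KO, and Fah, the last enzyme of tyrosine breakdown, over 603 to 808 (median 636) and 333 to 648 (median 584). Both overlapped. In p53KO 36 of the 40 lay below 0, with a median of -0.14, and this rested on 1 library. Without Control_p53KO 3, 22 of the 40 lay below 0 and the median was -0.01.

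On HFD, 0 of the 40 and 0 of all genes passed in edgeR, and 0 of the 40 and 509 of all genes were at an unadjusted p under 0.05. DESeq2 and limma-voom called 0 of the 40. The 4 genes of smallest p were Gls2 at -0.51 (SE 0.27, adjusted p = 0.9998), Hal at -0.53 (SE 0.29, adjusted p = 0.9998), Amdhd1 at -0.27 (SE 0.18, adjusted p = 0.9998) and Cbs at -0.31 (SE 0.22, adjusted p = 0.9998). Gls2 had a median of 249 CPM in HFD_Rosa26KO and 162 in HFD_p53KO, and the groups overlapped. Hal had medians of 196 and 127 CPM and overlapped likewise, as did Amdhd1, at 156 to 237 (median 201) and 106 to 229 (median 164) CPM, and Cbs, at 327 to 736 (median 469.6) and 257 to 754 (median 329). The median of the 40 was -0.08, and it was -0.21 without HFD_p53KO 7.

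Averaged over both diets, 0 of the 40 and 0 of all genes differed between genotypes in edgeR, with 0 of the 40 and 573 of all genes at an unadjusted p under 0.05 and 0 of the 40 in DESeq2 and limma-voom. The smallest p belonged to Gls2 at -0.34 (SE 0.20, adjusted p = 0.966), Amdhd1 at -0.21 (SE 0.13, adjusted p = 0.966), Hal at -0.34 (SE 0.21, adjusted p = 0.966) and Ass1 at -0.32 (SE 0.22, adjusted p = 0.966). The bounds of 2 SE for Gls2 were -0.74 and 0.05 and for Ass1 -0.76 and 0.12. For these 2 genes a fall of the size that diet gave is not outside the bounds. For Hal, 2 SE below its difference did not reach its fall on HFD.

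A few libraries were low or high in most of the 40 genes at once. Control_p53KO 3 was the lowest of its group in 40 of 40, with a median log2 difference of -1.12 from its group, and the summed level of the 40 was 11786 CPM there against 26509 to 32175 in the 5 other libraries of the group. The same library had a mean log2 score of 2.12 for neutrophil, 1.87 for lymphocyte and 1.59 for Kupffer cell markers above the median library, and -0.44 for hepatocyte markers. HFD_p53KO 7 was the highest of its group in 31 of 40, by a median of 0.82, with a sum of 35478 CPM against 14576 to 24908 in the 6 others. It had scores of -1.82 for stellate cell, -1.38 for endothelial and 1.94 for acute phase genes. The sum in HFD_p53KO 7 was below that of Control_Rosa26KO 5 (36335 CPM) and above that of every other control-diet library. Control_Rosa26KO 5 was highest of its group in 32 of 40, by a median of 0.39. Within HFD_Rosa26KO, replicate 6 was highest in 17 and replicate 2 in 14. The part of cell makeup in these differences was not tested.

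**Figure D4:**
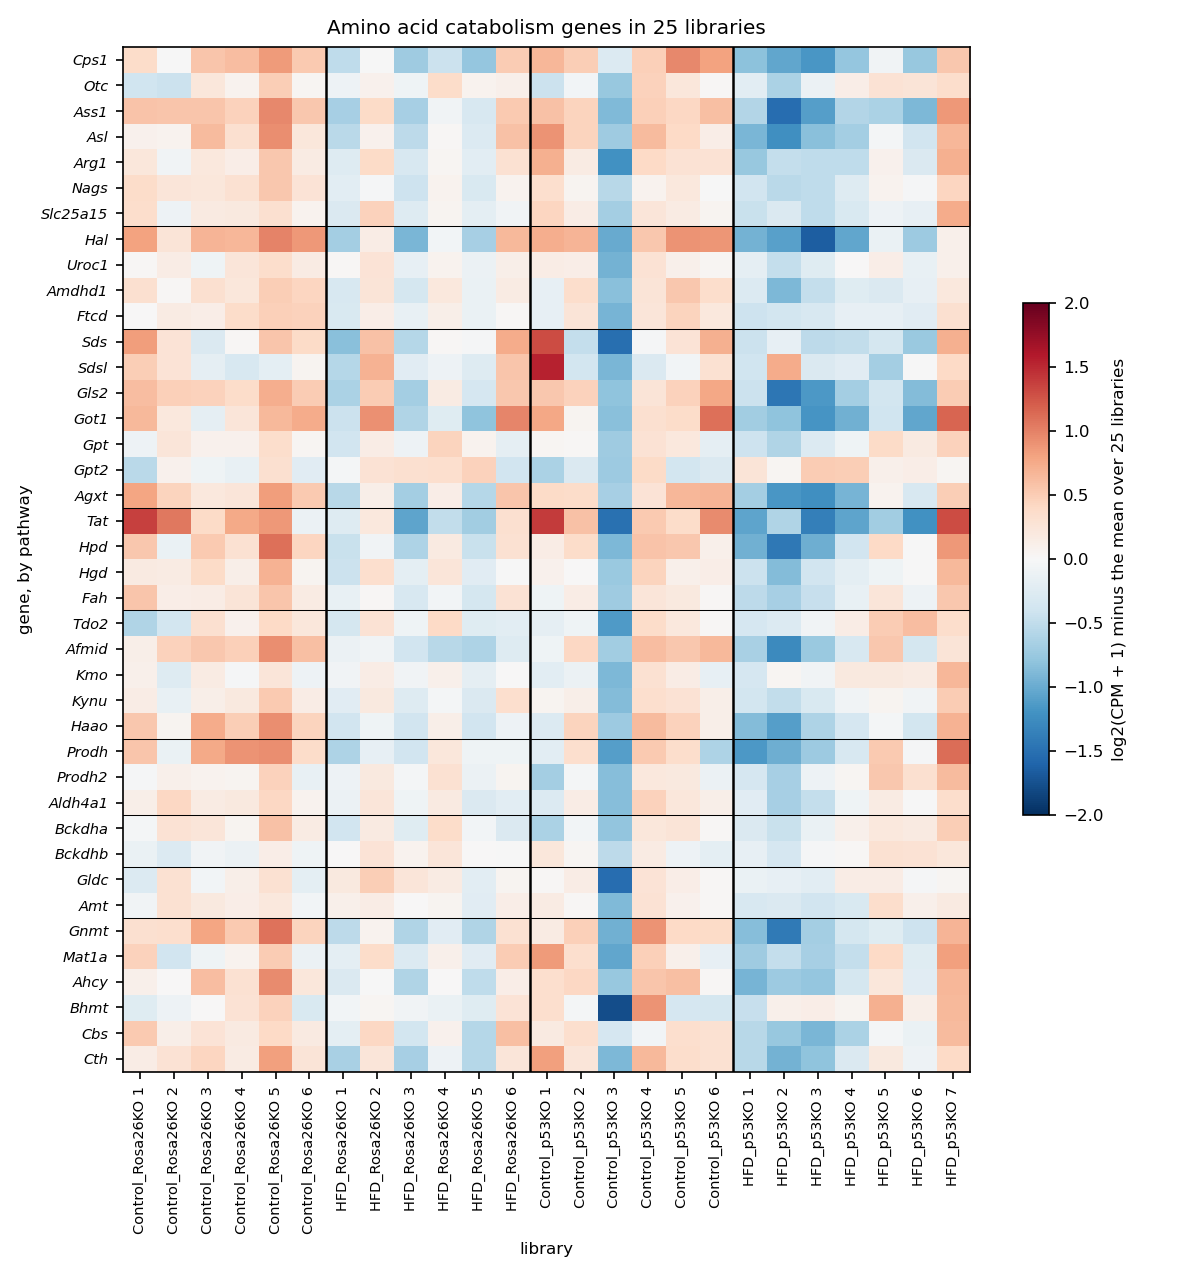
The 40 genes, by pathway, in the 25 libraries, coloured by log2(CPM + 1) minus the mean of the gene over the 25 libraries. Control_p53KO 3 is low in all 40 rows against its own group, and HFD_p53KO 7 is the highest of its group in 31.

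Set against each other per length of exon, the 40 genes spanned a wide range. In Control_Rosa26KO, Ass1 was highest at 1356 CPM per kilobase, followed by Gnmt at 1343, whose difference is within their SDs of 180.0 and 298. Hpd followed at 752 and Mat1a at 736, again within their spread, and Sdsl was lowest at 5.71. In HFD_p53KO, Gnmt was first at 694 and Ass1 second at 652 CPM per kilobase, a difference within their SDs of 344 and 437. Hal went from place 28 in Control_Rosa26KO to place 35 in HFD_p53KO, and Gpt2 from place 24 to 16. Exon lengths are those of the GENCODE M21 annotation, which may differ from the annotation used for counting.

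**Figure D5:**
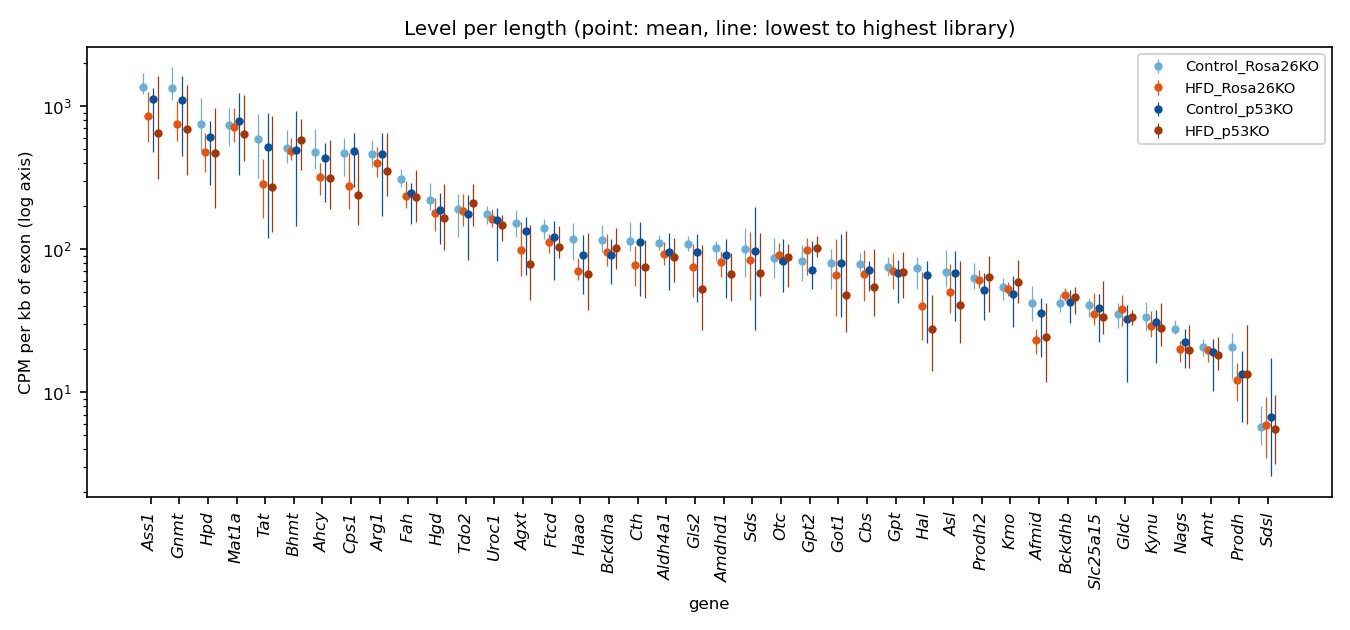
Level per kilobase of exon (log axis) of the 40 genes in the 4 groups, with the mean as a point and a line from the lowest to the highest library. Ass1 and Gnmt are at the top and Sdsl at the bottom in all 4 groups.

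Other genes of amino acid breakdown were read for context. Of 75 such genes 68 were tested, and on HFD, averaged over both genotypes, 1 passed higher and 7 lower in edgeR, against the 9.71% of all genes. Their median was -0.08. Gcat, which cleaves the product of threonine oxidation, was at -1.01 (SE 0.17, adjusted p = 0.000609), with 58.0 to 105 (median 91.1) CPM in Control_Rosa26KO and 31.2 to 45.7 (median 39.7) in HFD_Rosa26KO. Csad, which makes the precursor of taurine, was at -1.12 (SE 0.19, adjusted p = 0.000658), and the kynurenine aminotransferase Kyat1 at -0.99 (SE 0.21, adjusted p = 0.00414). Qdpr, which recycles the cofactor of phenylalanine hydroxylase, was at -0.71 (SE 0.15, adjusted p = 0.00451) and the sulfide oxidation enzyme Ethe1 at -0.54 (SE 0.12, adjusted p = 0.00633). Agxt2, a mitochondrial aminotransferase, was the 1 that rose, at 0.39 (SE 0.10, adjusted p = 0.0148). Within Rosa26KO, where 1.06% of all genes passed lower, Csad (-1.39), Gcat (-1.21) and Ethe1 (-0.80) did. Within p53KO, where 2.87% of all genes passed, the 1 that did in edgeR was Bckdk, at 0.34 (SE 0.09, adjusted p = 0.0375). Bckdk is the kinase that inhibits the branched-chain dehydrogenase.

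Of 16 amino acid transport genes, 3 fell on HFD by edgeR, averaged over both genotypes, where 5.07% of all genes passed lower. They were the neutral amino acid carrier Slc43a1 at -1.28 (SE 0.36, adjusted p = 0.0236) and the glutamine carriers Slc38a2 at -0.38 (SE 0.11, adjusted p = 0.0356) and Slc38a3 at -0.56 (SE 0.18, adjusted p = 0.0450). Slc38a3 ran over 1402 to 2365 (median 2069) CPM in Control_Rosa26KO, 956 to 1995 (median 1139) in HFD_Rosa26KO, 780.3 to 2173 (median 1905) in Control_p53KO and 792 to 2234 (median 943) in HFD_p53KO. HFD_p53KO 7 was again the highest of its group and Control_p53KO 3 the lowest. Of 16 transcription factors and receptors that act on these genes, 2 fell, against the same 5.07% of all genes. Atf4, the effector of the amino acid stress response, was at -0.26 (SE 0.07, adjusted p = 0.0184) and Ppargc1a, a coactivator of fasting metabolism, at -0.62 (SE 0.17, adjusted p = 0.0199). Within Rosa26KO, where 1.51% of all genes passed, Atf4 alone of the 16 did in edgeR, at -0.39 (SE 0.10, adjusted p = 0.0477). Between genotypes, on either diet or on average, and in the interaction, 0 of the 68 tested breakdown genes, 0 of the 16 transport genes and 0 of the 16 regulators passed in edgeR, as did 0 of all genes. On control diet the log2 differences between genotypes were -0.30 for Bckdk, -0.28 for the carrier gene Slc25a44, 0.24 for Slc38a2 and -0.24 for Atf4, none past the threshold.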

How the data were processed

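PolyA RNA of flash-frozen liver was sequenced in 25 libraries as paired reads of 75 bases, per the labels' protocols. The authors deposited raw read counts per gene, 1 table of 24537 gene symbols. Per the submitters' processing notes, STAR and HOMER were used with GRCm38 (mm10). Their versions, the counting strand and the gene annotation were not given in the sources used here. In edgeR 4.0.16, filterByExpr (minimum count 10, minimum total 15) chose the genes, TMM scaled the libraries, and counts were fitted with a robust quasi-likelihood model of 4 group means over all 25 libraries. Each of 7 comparisons was tested two-sided, with Benjamini-Hochberg adjustment over its 14133 genes and a threshold of 0.05. The log2 fold changes are as edgeR gives them, and an SE is the log2 fold change over the square root of F. Scores are mean log2 CPM with a prior count of 3. DESeq2 1.42.0, limma 3.58.1, RLE scaling, no filter, a replicate block, a library run term, non-robust dispersion, the compared groups alone and leaving out each library were alternatives. The scripts were tested on simulated data.

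The 40 genes and the other lists were chosen with earlier results of these data known. Named are genes past the threshold, or the 4 of smallest p where fewer pass, and from the other lists up to 6 past the threshold, or the 2 of smallest p, and some that this rule names are not reported here. Positions are from GENCODE M21 on GRCm38. Symbols of the other lists that the table does not hold were not analysed here. Library totals of 16324283 to 21501281 limit the precision of low genes most.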

Additional observations from a re-analysis of the deposited data

Results flagged for a closer look

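In the named genes, 10 of 72 combinations of gene and group held a library far from the others of its group. The 72 are 18 genes in 4 groups. Chance gives about 1 in 20 for independent values, but these genes share libraries, so the count cannot be set against that rate. The 10 come from 4 libraries. In HFD_p53KO 7 the level of Ass1 was 3898 CPM against 746 to 1430.1 in the 6 others, that of Tat 2041 CPM against 317 to 541, and that of Gnmt 1699 CPM against 397 to 893. In the same library Gls2 was at 371 CPM against 95.2 to 203, and Cbs at 754 CPM against 257 to 471. In Control_p53KO 3 Ass1 was at 1165 CPM against 2860.0 to 3248 in the 5 others, and Hal was at 123 CPM against 359 to 460.1. In Control_Rosa26KO 5 Ass1 was at 4147 CPM against 2949.5 to 3167, and Cth at 437 CPM against 273 to 332. In Control_p53KO 4 Gpt2 was at 641 CPM against 296 to 399.9. The marker values of the first 2 libraries stand in the results above, and their part in these levels was not tested.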

How the results depend on the processing

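Counts of the 40 genes past the threshold moved most for the diet comparisons. For diet averaged over genotypes (11), limma-voom called 26 and the replicate block 20. Without libraries high in neutrophil markers it was 18, without those high in acute phase genes 17 and without either 26. RLE scaling and non-robust dispersion gave 11, no filter 8, DESeq2 15 and the library run term 16. For diet in Rosa26KO (0), DESeq2 called 1, limma-voom 18, the replicate block 6, the library run term 1 and a fit of the compared groups alone 6, and without the neutrophil-high, acute phase-high or either set of libraries 4, 3 and 11. For diet in p53KO (2), these were 4, 21, 12, 4 and 0, and then 4, 5 and 15. The shares of all genes moved too. In the average (9.71%) they were 35.4% for limma-voom, 16.1% for the block, 12.7% for DESeq2 and for the run term, and 6.03% with no filter. In Rosa26KO (1.51%) they were 4.35%, 21.4%, 3.88%, 3.13% and 4.77%, then 3.78%, 2.45% and 4.61%, in the order of the counts above. In p53KO (2.87%) they were 6.42%, 15.5%, 5.55%, 4.48% and 0.878%, then 3.43%, 3.30% and 5.57%. Leaving out 1 library gave 5 to 19 for the average (1012 to 1883 of all genes). It gave 0 to 1 in Rosa26KO (93 to 509 of all genes) and 0 to 9 in p53KO (173 to 760 of all genes). The cause was not tested. Genotype comparisons and the interaction stayed at 0 of the 40 under every alternative run. Of the alternatives for single genes, none reversed a direction. Without the filter Tat, Cth and Gpt2 lost the threshold (adjusted p 0.0516, 0.0531 and 0.0588).

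Whether the replicate numbers pair the libraries is not known. Of 36 same-numbered pairs, 17 had deviations correlated over 0.1, with correlations from -0.40 to 0.61. Pairs of different numbers were not counted beside them, so this cannot decide it. The replicate block takes up HFD_p53KO 7, the 1 library with its number. In the diet average, the smallest difference that passed was 3.18 times its SE (Gpt2) and the largest that did not was 3.06 times its SE (Nags). The threshold thus lay between these in this fit, with 6 or 7 libraries per group. It depends on how many of all genes pass and is not a limit of detection.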
